A study of Mus musculus with 48 samples.

Results

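The nuclear genes of oxidative phosphorylation were taken as all protein-coding genes of GENCODE mouse release M21 whose symbol begins with Nduf (without the Ndufaf assembly factors), Uqcr, Cox4, Cox5, Cox6, Cox7, Cox8 or Atp5, together with Sdha, Sdhb, Sdhc and Sdhd. This rule named 86 of 34932 measured genes, and all 86 were listed in the deposited transcript tables. Of these, 36 belong to complex I, 4 to complex II, 8 to complex III, 18 to complex IV and 18 to complex V, and 2 form the pair of Ndufa4 and Ndufa4l2, which are named as complex I genes although the NDUFA4 protein is found in complex IV. No expression value enters this naming rule, although the pathway was picked with earlier results of these data known.

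Oxidative phosphorylation takes place at the inner mitochondrial membrane, where complexes I and II take electrons from NADH and succinate, complex III passes them to cytochrome c, complex IV hands them to oxygen, and complex V, the ATP synthase, uses the proton gradient that complexes I, III and IV build. Complexes I, III, IV and V join nuclear-encoded subunits with a few subunits that are encoded by mitochondrial DNA, while complex II is wholly nuclear-encoded. Resting lymphocytes rely largely on this pathway for ATP, activated T cells add glycolysis to it, and low oxygen is known to switch some subunits to alternative isoforms.

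RNA was sequenced from 3 sorted populations, CD45+ CD4- CD8- cells (here CD45 cells) and CD8+ and CD4+ T cells, taken live from B16F10 melanomas grown under the skin (TILs) and from tumor-draining inguinal lymph nodes (TDLNs) of C57BL/6J mice. Wild-type mice (WT) were compared with Yap-cKO mice, in which CD4-Cre deletes floxed Yap, a transcriptional co-activator of the Hippo pathway, and in which the methods describe an EYFP reporter allele (Yap-loxP/loxP; LSL-EYFP; CD4-Cre) and young littermates as controls. Each of the 12 groups of genotype, cell type and tissue held 4 libraries, 48 in all. CD4-Cre acts in T-lineage cells, including those that become CD8+, so the CD45 cells of Yap-cKO mice were not themselves the target of the deletion, and every mouse bore a tumor, so no group shows these cells without one.

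The libraries held 12656510 to 24213892 counts in genes, at which 3 counts correspond to 0.124 to 0.237 CPM (counts scaled to library size). All 15 T-lineage markers were above 3 counts in every library of the T-cell groups, but the summed CPM of 10 melanoma markers was 4552 to 21156 in WT T-cell TILs and 85.6 to 3076 in Yap-cKO T-cell TILs, against 15.5 to 25.9 in T cells of TDLNs, where Sox10 had 0 counts in every library but Yap-cKO CD8 TDLN replicate 3. Yap1, the deleted gene, was at 20.6 ± 5.26 CPM (SD, n = 4) in WT CD4 TILs and 3.11 ± 1.72 in Yap-cKO CD4 TILs, and it was at 1.68 to 2.32 CPM on average in T cells of TDLNs of both genotypes. In CD45 TILs, cells that were not the target, Yap1 was at 2.74 to 5.32 CPM in WT and 1.52 to 2.03 CPM in Yap-cKO mice, and in Yap-cKO CD4 TILs the library with the highest melanoma sum also had the highest Yap1 (5.58 CPM). Yap1 is therefore not used here as a check of the labels. A set of Y-linked genes was high in WT replicates 1 to 3 and low in WT replicate 4 and in every Yap-cKO library, so sex and genotype cannot be told apart except by that replicate. The labels do not say that the 4 libraries of a group came from separate mice, and p-values measure the spread between these libraries. The CD45 gate held different cells in the nodes and the tumors: summed macrophage and monocyte markers were 206 to 3857 CPM in WT CD45 cells of TDLNs (736 CPM on average without replicate 4) and 23142 to 35928 CPM in WT CD45 TILs, while B cell markers were 7503 and 1182 CPM.

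The subunits stood at very different levels. Levels between genes are compared here on the deposited TPM scale, which accounts for transcript length and library size, as means over the 48 libraries. The highest was Atp5b, the catalytic beta subunit of the ATP synthase, at 1448 TPM, followed by 3 complex IV subunits, Cox8a at 1040, Cox4i1 at 1004 and Cox6a1 at 963 TPM. Complex III was led by Uqcrq at 761 TPM, complex I by Ndufa3 at 760 TPM and complex II by Sdhb, the iron-sulfur subunit, at 334 TPM. The large NADH-side subunit Ndufs1 was among the lowest of the ubiquitous subunits at 64.8 TPM, while Sdha, the flavoprotein of complex II, was at 179 TPM.

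The bottom of that order was formed by tissue-restricted and alternative subunits. Cox6a2, the heart and muscle partner of Cox6a1, was at 19.6 TPM, Atp5s (a coupling factor B homolog) at 12.7, Cox7a1 at 7.20, Cox6b2 at 5.11, Ndufa4l2 at 4.14 and Cox4i2 at 2.36 TPM. Cox7b2 was at 3 counts or fewer in all 48 libraries, Cox8c in 47, Cox8b in 46, and a separate gene model that also carries the symbol Atp5o in 43; no result is drawn from these 4. Many of these genes have processed pseudogenes or close paralogs, such as the Atp5g1, Atp5g2 and Atp5g3 genes for the same mature subunit c, and the counting divides reads among near-identical transcripts, so the level of a single member carries that uncertainty.

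Summed over all 86 genes, TILs were above TDLNs in every cell type and both genotypes on average. Between libraries, levels are given as CPM after TMM scaling over all 48 libraries. In CD4 cells the sums of replicates 1 to 4 were 11531, 14607, 12094 and 9016 CPM in WT TDLNs and 25270, 20930, 19104 and 14795 CPM in WT TILs. The lowest WT TIL library therefore lay just above the highest WT TDLN library. In Yap-cKO CD4 cells the sums were 13794, 10318, 8766 and 7773 CPM in TDLNs and 9902, 10478, 25287 and 14123 CPM in TILs, so that the groups overlapped and only replicates 3 and 4 lay above every Yap-cKO TDLN library.

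In CD8 cells the WT sums were 13740, 15585, 16320 and 9173 CPM in TDLNs and 23313, 15189, 16627 and 23596 CPM in TILs. The Yap-cKO sums were 14677, 11374, 7573 and 14551 CPM in TDLNs and 10468, 13568, 14925 and 14661 CPM in TILs, all of the latter below every WT CD8 TIL library. In CD45 cells the WT sums were 14373, 7131, 10676 and 11490 CPM in TDLNs and 21025, 15599, 20012 and 16607 CPM in TILs, without overlap. The Yap-cKO CD45 sums were 8477, 9223, 11340 and 11164 CPM in TDLNs and 17313, 14210, 11981 and 15965 CPM in TILs, again without overlap. As a share of all counts, the 86 genes took 1.17% in WT CD4 cells of TDLNs and 2.29% in WT CD4 TILs, 1.27% and 2.3% in WT CD8 cells, and 1.01% and 1.54% in WT CD45 cells. In bulk RNA, a change in the mix of cells and a change in RNA per cell cannot be told apart.

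**Figure D1:**
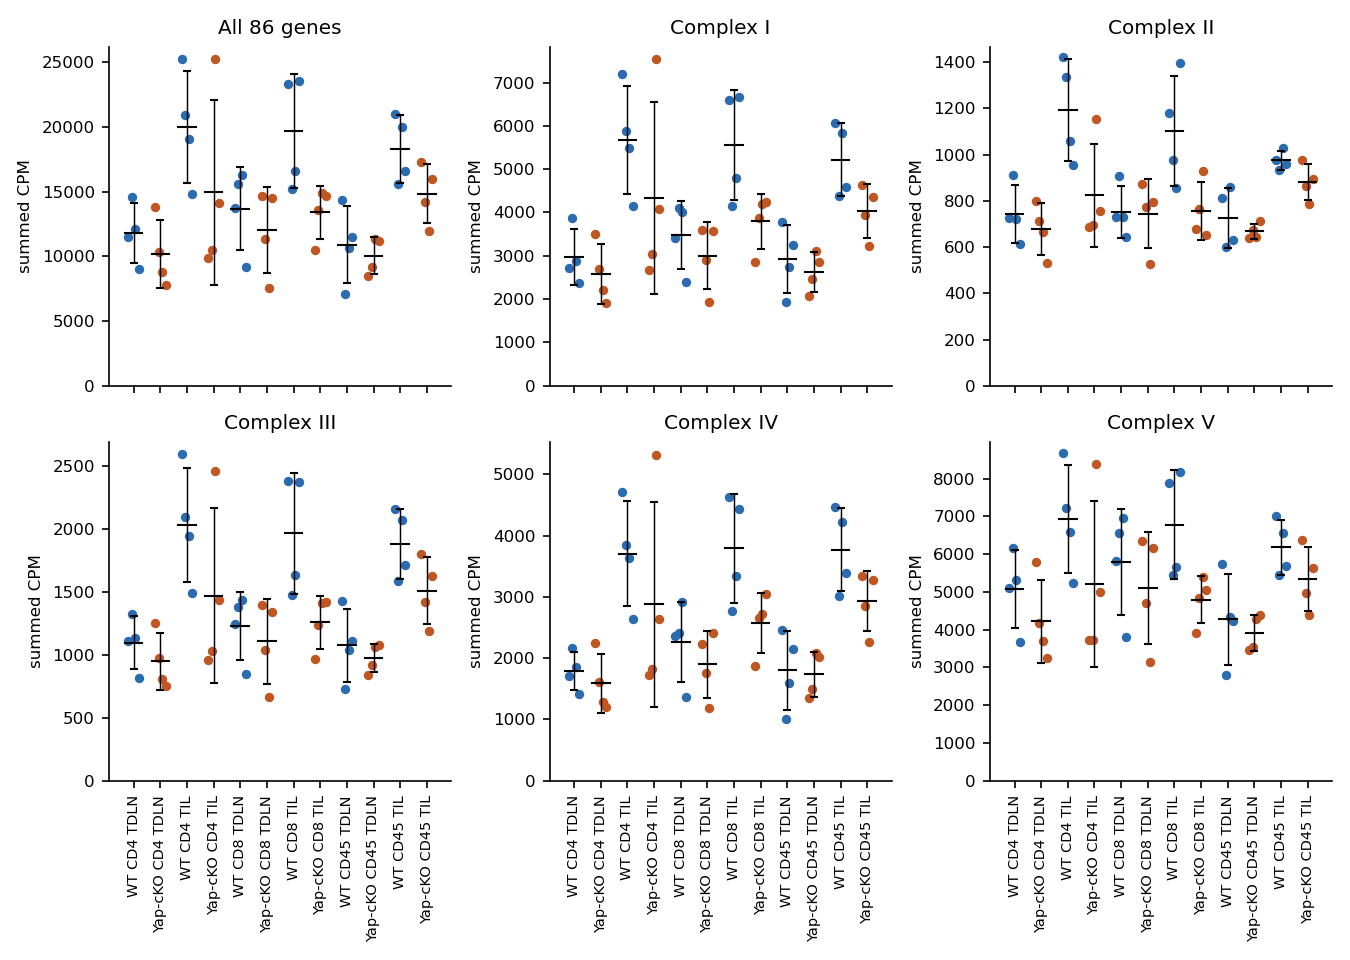
Summed CPM of the 86 nuclear subunits and of complexes I, II, III, IV and V in each library (points; blue WT, orange Yap-cKO) of the 12 groups, with bars for the mean and SD of 4 libraries. WT CD4 TILs averaged 20025 CPM over all members against 11812 CPM in WT CD4 cells of TDLNs, and Yap-cKO CD8 TILs averaged 13405 CPM against 19681 CPM in WT CD8 TILs.

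The first comparison asked how these genes differ between cells of the tumor and of the draining node. In WT CD4 cells, 60 of 82 tested members were higher in TILs and 0 were lower (edgeR quasi-likelihood test, adjusted p under 0.05 after Benjamini-Hochberg adjustment over all genes), where 26.8% of all genes tested were called higher. The median log2 fold change of the members was 0.98 and that of all genes -0.03. In WT CD8 cells 37 of 80 members were called higher and 0 lower, against 24.5% of all genes called higher, with a median of 0.78 against -0.02. In WT CD45 cells the count was 56 of 82 higher and 0 lower, against 25.8% of all genes, with a median of 0.93 against -0.08. Of these members 5, 2 and 3 reached the filter of 10 counts in TILs alone, with 1 library at most at that count in TDLNs. The filter thus favored a difference in them, and all were called higher but Cox6b2 in WT CD4 cells, at 61 against 42 counts. Without them 56 of 77, 35 of 78 and 53 of 79 were called higher in WT CD4, CD8 and CD45 cells, where 20.5%, 17.7% and 22.8% of the genes left in the same way were.

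In Yap-cKO mice the medians were also above 0, while the counts varied. Of 79 members tested in Yap-cKO CD4 cells, 5 were called higher and 0 lower, where 12.5% of all genes were called higher, and the median was 0.75 against -0.04. In Yap-cKO CD8 cells 12 of 79 were called higher and 0 lower, against 12.2% of all genes, with a median of 0.51 against 0.02. In Yap-cKO CD45 cells 53 of 81 were called higher, against 28% of all genes, with a median of 0.62 against -0.09, and 1 member, Atp5s, was called lower, where 27.9% of all genes were (log2 fold change -0.74, adjusted p = 0.0298 by edgeR). The count for Yap-cKO CD4 cells ranged from 0 to 16 and that for Yap-cKO CD8 cells from 0 to 31 when 1 library was left out; the higher ends came without Yap-cKO CD4 TIL replicate 1 and Yap-cKO CD8 TIL replicate 1. Without the members that reached the filter in TILs alone, 5 of 79, 10 of 77 and 50 of 78 were called higher in Yap-cKO CD4, CD8 and CD45 cells, where 9.72%, 9.45% and 25.7% of the genes left were. Members that were tested in both genotypes had the larger log2 fold change in WT in 58 of 79 cases in CD4 cells, 69 of 78 in CD8 cells and 70 of 81 in CD45 cells; the test of that difference is given with the genotype comparisons.

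**Figure D2:**
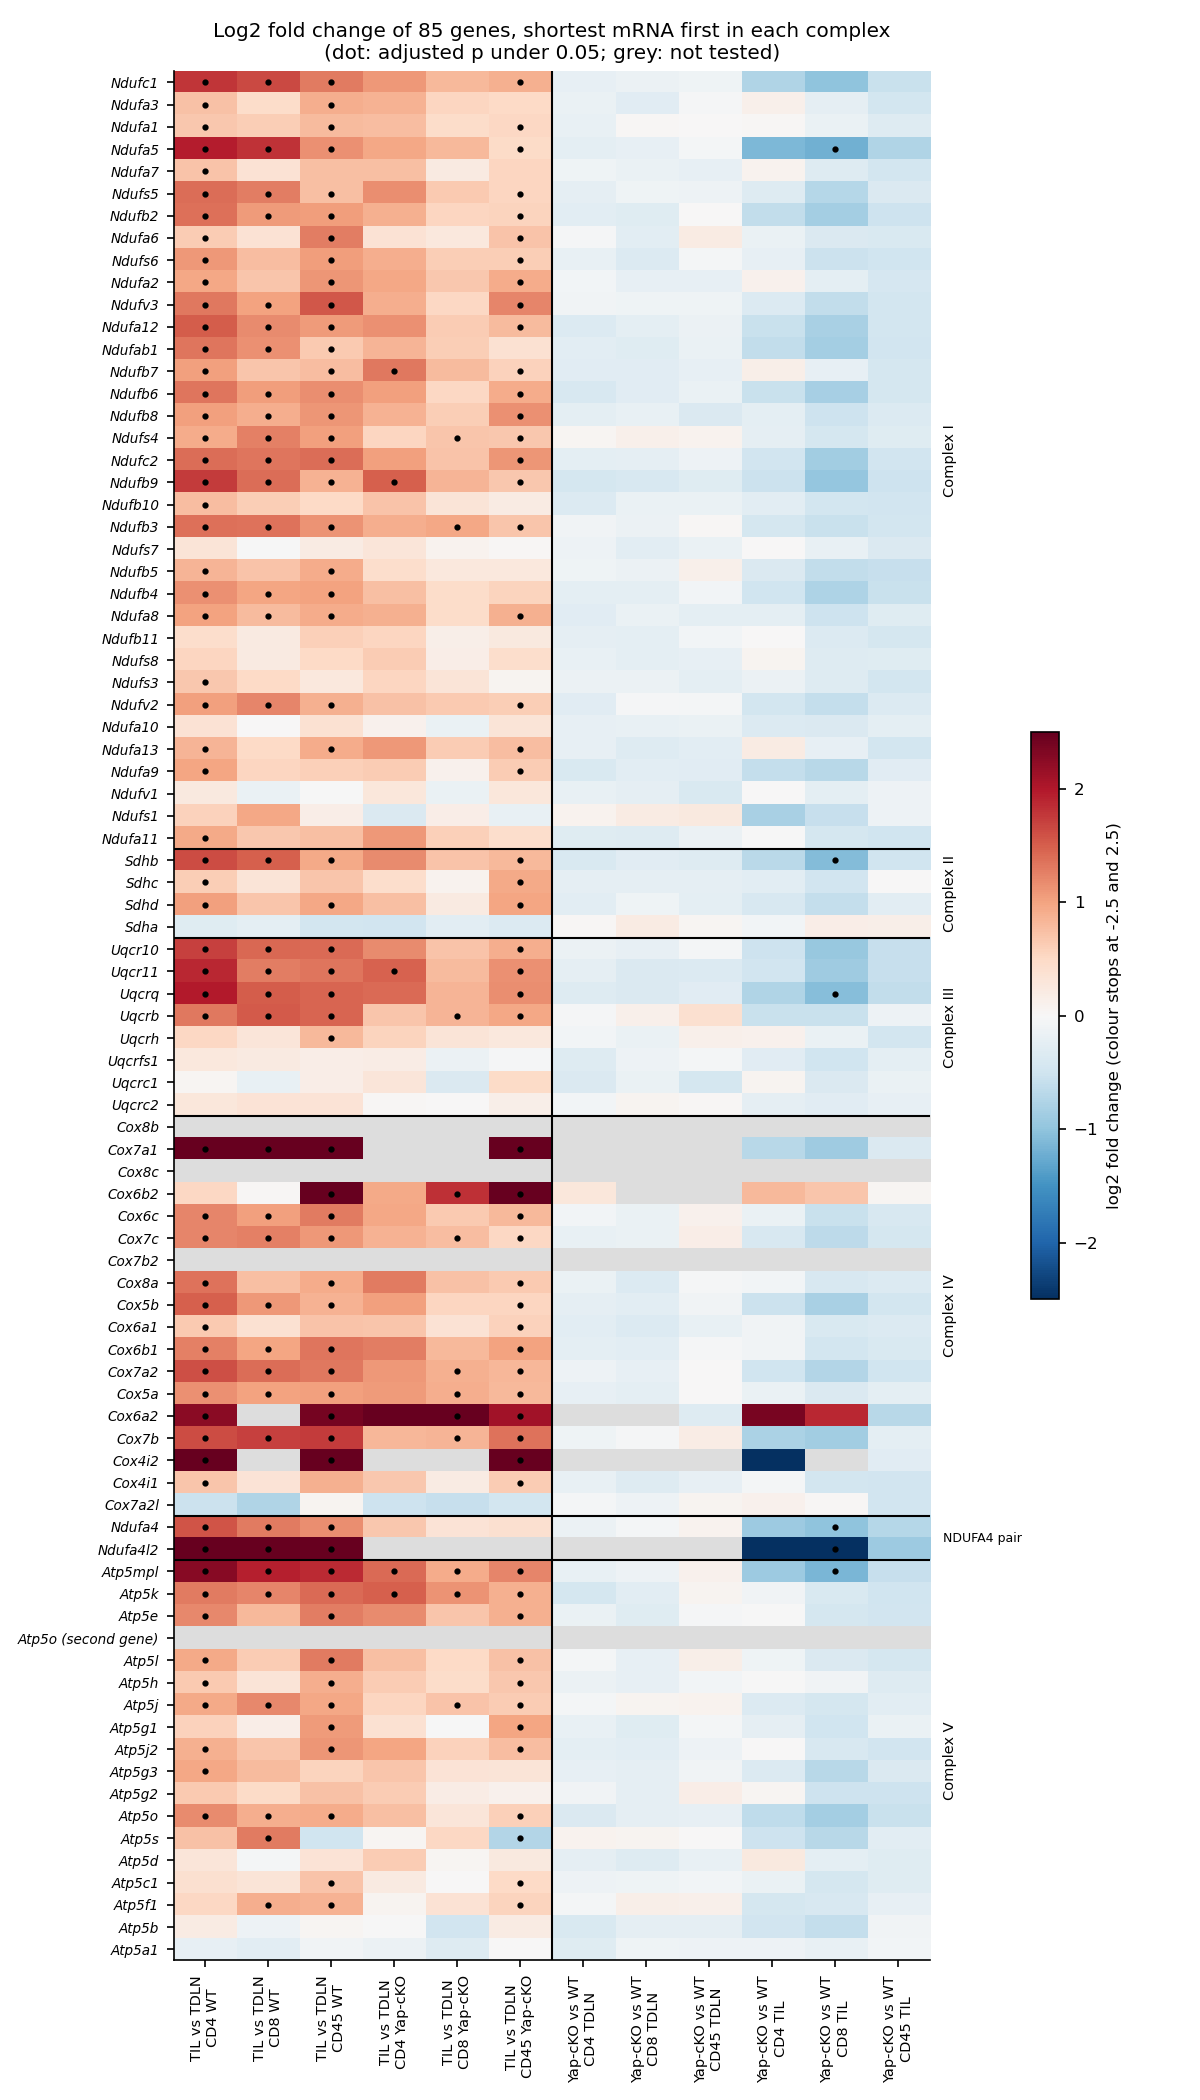
Log2 fold changes of 85 members in 12 comparisons (6 of TILs against TDLNs, 6 of Yap-cKO against WT), with the shortest mRNA first within each complex, a dot where the adjusted p was under 0.05 and grey where a gene was not tested; the color scale stops at 2.5 in either direction. The tissue columns of WT cells hold the most dots (60 in CD4, 37 in CD8 and 56 in CD45 cells), and the genotype columns hold 6, all in CD8 TILs.

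Members differed in how often they rose. Of the 86, 2 were called higher in TILs in all 6 tissue comparisons, 10 in 5, 21 in 4, 18 in 3, 8 in 2, 7 in 1 and 20 in none, of which 16 were tested. How often all genes were called in this many comparisons was not counted. In single comparisons 12.2% to 28% of all genes were called higher. Members called in 3 or 4 include Cox4i2, Cox6a2, Cox6b2, Cox7a1 and Ndufa4l2, with calls made where only TILs reached the filter. The 2 that rose in all 6 were Atp5mpl and Atp5k, small membrane subunits of the ATP synthase. The 10 that rose in 5 were Atp5j, Cox5a, Cox7a2, Cox7b, Cox7c, Ndufb3, Ndufb9, Ndufs4, Uqcr11 and Uqcrb. Among the 16 tested members that were never called stood many core subunits: Atp5a1 and Atp5b of complex V, Sdha of complex II, Uqcrc1, Uqcrc2 and the Rieske protein gene Uqcrfs1 of complex III, and Ndufs1, Ndufs7, Ndufs8 and Ndufv1 of complex I.

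Of the 36 members of complex I, 29 were called higher in WT CD4 TILs, 16 in WT CD8 TILs and 24 in WT CD45 TILs. Of all genes, 26.8%, 24.5% and 25.8% were. In the Yap-cKO counterparts 2, 2 and 21 members were called higher, where 12.5%, 12.2% and 28% of all genes were. The share of complex I in Yap-cKO CD4 and CD8 cells, 5.56% in each, was thus below that of all genes. Ndufa5, a subunit of the peripheral arm, was at 39.8, 41.1, 40.8 and 31.7 CPM in WT CD4 cells of TDLNs and at 230, 155, 119 and 99.3 CPM in WT CD4 TILs. Every TIL library lay far above the highest node library, and the log2 fold change was 1.97 (SE 0.261, edgeR adjusted p = 8.07e-05). Ndufs4, an accessory subunit needed for a fully assembled complex I, rose by 0.92 in WT CD4 cells, 1.25 in WT CD8 cells and 1.03 in WT CD45 cells on the log2 scale (adjusted p = 0.00298, 0.00272 and 0.0034).

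The subunits that bind the flavin and the iron-sulfur clusters of complex I were divided. Ndufv2, which binds 1 iron-sulfur cluster beside the flavin subunit, rose by 1.03, 1.23 and 0.88 on the log2 scale in WT CD4, CD8 and CD45 cells (edgeR adjusted p = 0.00194, 0.00271 and 0.00895), while Ndufv1 and Ndufs1 were called in none of the 6 tissue comparisons. Ndufv1, which binds FMN and NADH, was at 120, 165, 118 and 82.9 CPM in WT CD4 cells of TDLNs and at 160, 153, 149 and 113 CPM in WT CD4 TILs, with overlapping groups and a log2 fold change of 0.25 (adjusted p = 0.402 by edgeR). Its log2 fold changes in the other 5 tissue comparisons lay between -0.16 and 0.29. Ndufs1, the largest subunit of the NADH side, had 0.58 in WT CD4 cells, 0.97 in WT CD8 cells (adjusted p = 0.0501) and -0.36 in Yap-cKO CD4 cells, so its sign varied.

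The 4 subunits of complex II went different ways. Sdhb was at 152, 246, 155 and 115 CPM in WT CD4 cells of TDLNs and at 693, 596, 423 and 361 CPM in WT CD4 TILs, without overlap (log2 fold change 1.63, SE 0.286, edgeR adjusted p = 0.000619). It rose by 1.49 in WT CD8 cells and by 0.94 in WT CD45 cells on the same scale (adjusted p = 0.00384 and 0.0101). Sdhd, a membrane anchor, rose by 1.03 in WT CD4 cells and by 0.96 in WT CD45 cells (adjusted p = 0.00366 and 0.0124), and Sdhc, the other anchor, rose by 0.62 in WT CD4 cells (adjusted p = 0.0407).

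Sdha, which joins Sdhb in the soluble catalytic head, was at 376, 417, 351 and 353 CPM in WT CD4 cells of TDLNs and at 311, 326, 270 and 307 CPM in WT CD4 TILs. The TIL libraries were all below the node libraries, yet the difference did not pass the test (log2 fold change -0.30, SE 0.197, edgeR adjusted p = 0.231). Its value was below 0 in all 6 tissue comparisons, from -0.24 to -0.47. That sign depended on the scaling: with total gene counts in place of TMM it was -0.09 in WT CD4 cells and 0.02 in WT CD8 cells, while in WT and Yap-cKO CD45 cells it was -0.57 and -0.56, called lower in both (adjusted p = 0.047 and 0.00782). With scaling on T-lineage genes it was 1.31 and 1.32 in WT CD4 and CD8 cells, where the median of all genes moved to 1.53 and 1.54.

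Of the 8 members of complex III, 4, 4 and 5 were called higher in WT CD4, CD8 and CD45 TILs and 1, 1 and 4 in Yap-cKO TILs. Of all genes, 26.8%, 24.5% and 25.8% were called higher in WT and 12.5%, 12.2% and 28% in Yap-cKO TILs. In Yap-cKO CD4 and CD8 cells the share of complex III, 12.5% in each, was near that of all genes. Uqcrq, a small subunit, was at 90.8, 130, 94.4 and 73.4 CPM in WT CD4 cells of TDLNs and at 562, 384, 356 and 253 CPM in WT CD4 TILs (log2 fold change 1.99, SE 0.272, edgeR adjusted p = 9.97e-05). The groups were far apart, and Uqcr11, another small subunit, moved by a similar 1.88. Uqcrc1, the large core protein of the matrix side, was at 335, 390, 298 and 188 CPM in WT CD4 cells of TDLNs and at 337, 347, 313 and 247 CPM in WT CD4 TILs, with overlapping groups and a log2 fold change of 0.04 (adjusted p = 0.903). Uqcrfs1 had log2 fold changes from -0.14 to 0.26 over the 6 tissue comparisons, none of which passed the test.

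Of complex IV, 10 of 11, 7 of 12 and 10 of 13 members that reached the filter in both tissues were called higher in WT CD4, CD8 and CD45 TILs. Of all genes left in the same way, 20.5%, 17.7% and 22.8% were. The median log2 fold changes of these complex IV members were 1.22, 1.00 and 1.08. The medians of complex III were 0.92, 0.81 and 1.08 and those of complex I 0.97, 0.74 and 0.89. In Yap-cKO CD4, CD8 and CD45 TILs 0 of 13, 6 of 13 and 14 of 15 tested members of complex IV were called higher. Of all genes, 12.5%, 12.2% and 28% were. These calls include Cox6a2 and Cox6b2 in CD8 cells and Cox4i2, Cox6b2 and Cox7a1 in CD45 cells, which reached the filter in TILs alone. Cox5a, a core nuclear subunit, was at 97.9, 123, 120 and 88.2 CPM in WT CD4 cells of TDLNs and at 290, 250, 232 and 183 CPM in WT CD4 TILs. It rose by 1.15, 1.01 and 1.02 on the log2 scale in WT CD4, CD8 and CD45 cells (adjusted p = 0.000904, 0.0131 and 0.0113), and also by 0.90 in Yap-cKO CD8 cells and by 0.81 in Yap-cKO CD45 cells. Cox5b rose in the same 3 WT comparisons by 1.49, 1.08 and 0.86.

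Cox4i1, the ubiquitous form of the first nuclear subunit of complex IV, changed less. It was at 354, 457, 384 and 241 CPM in WT CD4 cells of TDLNs and at 745, 602, 584 and 396 CPM in WT CD4 TILs, with 1 TIL library inside the node range (log2 fold change 0.69, edgeR adjusted p = 0.0426). It was at 0.34 in WT CD8 cells (adjusted p = 0.462) and at 0.88 in WT CD45 cells (adjusted p = 0.0531). Cox7a2l, a supercomplex assembly factor that the naming rule also takes in, was below 0 in 5 of 6 tissue comparisons, at -0.53 in WT CD4 and -0.76 in WT CD8 cells, and was called in none.

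Of complex V, 9, 6 and 11 of 17 tested members were called higher in WT CD4, CD8 and CD45 TILs, and 2, 3 and 11 in Yap-cKO TILs. Of all genes, 26.8%, 24.5% and 25.8% were called higher in WT and 12.5%, 12.2% and 28% in Yap-cKO TILs. In Yap-cKO CD4 and CD8 cells the shares of complex V, 11.8% and 17.6%, were near those of all genes. Atp5mpl was at 45.6, 69.7, 51.3 and 52.1 CPM in WT CD4 cells of TDLNs and at 381, 280, 230 and 172 CPM in WT CD4 TILs (log2 fold change 2.27, SE 0.262, edgeR adjusted p = 2.71e-05). It rose by 1.94 in WT CD8 and 1.87 in WT CD45 cells, and by 1.41, 0.93 and 1.23 in Yap-cKO CD4, CD8 and CD45 cells. Atp5k was at 35.7, 54.2, 34.5 and 32.5 CPM in WT CD4 cells of TDLNs and at 127, 91.3, 100 and 64.8 CPM in WT CD4 TILs (log2 fold change 1.29, SE 0.247, adjusted p = 0.00118). Neither subunit overlapped between the tissues in WT CD4 cells.

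The catalytic core of the ATP synthase was not called. Atp5b was at 1851, 2213, 1865 and 1093 CPM in WT CD4 cells of TDLNs and at 2522, 2197, 1863 and 1532 CPM in WT CD4 TILs, with overlapping groups and a log2 fold change of 0.21 (SE 0.275, edgeR adjusted p = 0.56). Its partner Atp5a1, the alpha subunit, had -0.21 in WT CD4, -0.27 in WT CD8 and -0.09 in WT CD45 cells. Under scaling on T-lineage genes, with the median of all genes at 1.53 in WT CD4 and 1.54 in WT CD8 cells, Atp5b was at 1.96 and 1.55 and Atp5a1 at 1.47 and 1.37.

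Alternative isoforms were found mainly in TILs. Ndufa4l2, the hypoxia-linked paralog of Ndufa4, had 0 counts in all 4 WT CD4 libraries of TDLNs and stood at 16.8, 9.13, 16.9 and 2.42 CPM in WT CD4 TILs, at least 271-fold higher against a floor of 3 counts over the group. In WT CD8 TILs it was at 7.92, 19.5, 7.10 and 2.02 CPM, 718 counts against 1 count in TDLNs (ratio 661, 95% interval 118 to 26161, counting error only). The Yap-cKO TIL libraries were lower, at 0.281, 0.611, 4.80 and 0.71 CPM in CD4 cells and 0.0578, 0.812, 0.398 and 0.224 CPM in CD8 cells. In CD45 TILs it was at 1.14 to 2.04 CPM in WT and 0.433 to 1.21 CPM in Yap-cKO mice.

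Cox4i2, the oxygen-regulated partner of Cox4i1, showed a like distribution at lower counts. It was at 4.59, 3.83, 8.01 and 1.01 CPM in WT CD4 TILs against 0 to 0.223 CPM in TDLNs, and at 1.41, 6.93, 5.34 and 0.346 CPM in WT CD8 TILs, 277 counts against 5 (ratio 51, 95% interval 21.6 to 158). In Yap-cKO CD4 TILs it was at 0, 0.611, 1.92 and 0.101 CPM. Beside these values, summed markers of pericytes, a cell type known to express Ndufa4l2 and Cox4i2, came to 59.8 to 218 CPM in CD4 TILs of WT mice against 3.66 to 35.7 in those of Yap-cKO mice. In CD8 TILs they came to 43.2 to 442 against 11.7 to 26.1 CPM, and the WT mean of 175 CPM was 85.7 without replicate 2. The part of these cells, or of the melanoma cells above, in the isoform counts was not tested.

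Other isoforms were found in the CD45 cells. Cox6a2 was at 12.6, 2.90, 6.20 and 16.3 CPM in WT CD45 cells of TDLNs and at 78.9, 40.4, 54.2 and 33.9 CPM in WT CD45 TILs (log2 fold change 2.40, edgeR adjusted p = 0.00291), while no WT T-cell library exceeded 1.13 CPM. It reached 6.47 and 7.03 CPM in 2 of 4 Yap-cKO CD4 TIL libraries, the other two being at 0.0563 and 0.254. Cox7a1, like Cox6a2 a muscle form, was at 6.68, 3.65, 6.43 and 3.55 CPM in WT CD45 TILs against 0.0922 to 0.336 CPM in TDLNs. It was not limited to these cells, at 2.85, 1.28, 2.72 and 1.36 CPM in WT CD4 TILs and at 3.15, 0.799, 2.67 and 2.19 CPM in WT CD8 TILs. Cox6b2, known from testis, rose by 2.80 in WT CD45 cells on the log2 scale (edgeR adjusted p = 0.000488). In Yap-cKO CD45 cells it had 314 counts over the TIL libraries and 19 over those of TDLNs, none of which reached 10 counts.

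**Figure D3:**
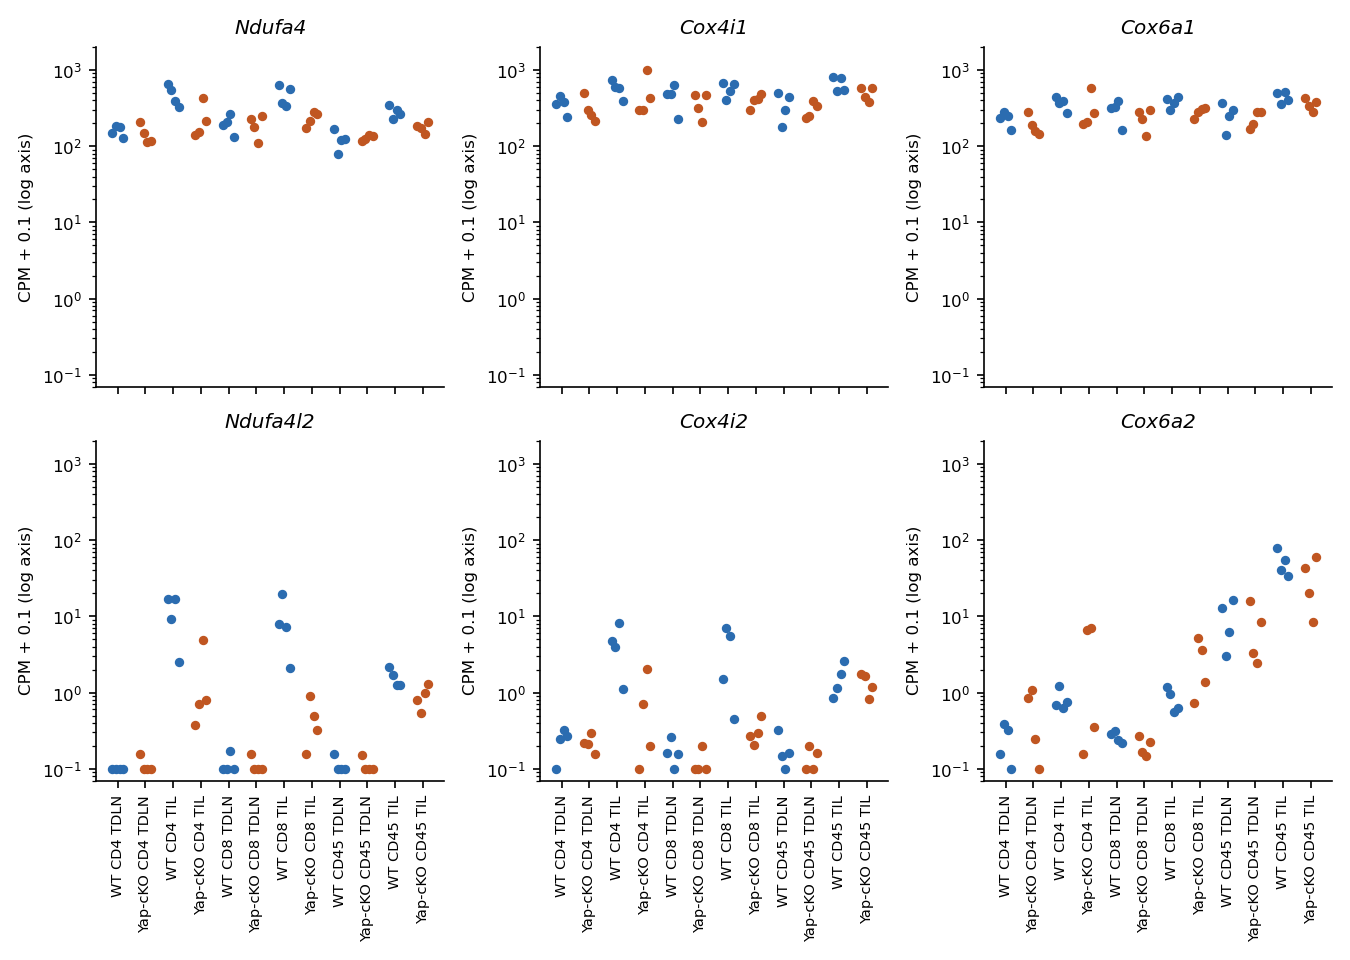
CPM plus 0.1 on a log axis of 3 widely expressed subunits (top row, Ndufa4, Cox4i1 and Cox6a1) and their alternative isoforms (bottom row, Ndufa4l2, Cox4i2 and Cox6a2) in each library of the 12 groups, WT in blue and Yap-cKO in orange. Ndufa4l2 is at 2.02 to 19.5 CPM in WT T-cell TILs and at or near 0 in TDLNs, and Cox6a2 is highest in CD45 TILs.

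Promoter sequences were examined because members moved together in the tissue comparison while others of the same complex did not. RefSeq promoters on GRCm38.p6, read here as the 250 bases before the annotated start, were matched for 69 of 86 members and compared with those of 17492 protein-coding genes, both strands searched. The palindromic NRF1 motif GCGCATGCGC, bound by a known regulator of respiratory genes, was in 4 members (5.8%) and in 1.21% of genes. The GABP core CCGGAAG was in 12 members (17.4%) and 10.2% of genes, and TATAAA in 6 members (8.7%) and 13.7% of genes. Of 9 matched members called in 5 or 6 tissue comparisons, 1 held GCGCATGCGC and 2 held CCGGAAG, and of 12 tested and matched members called in none, 1 and 0 did.

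The following 4 promoters show this, 5′ to 3′ on the strand of the gene with the matched motifs in capitals, all on the minus strand of GRCm38.p6. Atp5k (chr5:108434400-108434649), called higher in all 6 tissue comparisons, and Atp5g2 (chr15:102671048-102671297), a subunit c gene called in none, both hold the palindromic NRF1 motif. Uqcr11 (chr10:80406822-80407071), called in 5, holds a GABP core, and Sdhd (chr9:50603850-50604099), called in 3, holds a GABP core on the opposite strand.
Atp5k: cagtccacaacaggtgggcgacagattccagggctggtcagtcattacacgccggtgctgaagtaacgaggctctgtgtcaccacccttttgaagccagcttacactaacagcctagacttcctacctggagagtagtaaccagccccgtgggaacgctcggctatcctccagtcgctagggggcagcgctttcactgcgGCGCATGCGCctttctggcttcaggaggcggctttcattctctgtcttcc
Atp5g2: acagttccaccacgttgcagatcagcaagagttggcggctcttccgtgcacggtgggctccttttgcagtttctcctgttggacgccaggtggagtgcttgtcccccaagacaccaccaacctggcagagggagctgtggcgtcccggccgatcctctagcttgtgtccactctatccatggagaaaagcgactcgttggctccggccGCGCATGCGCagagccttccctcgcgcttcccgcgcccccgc
Uqcr11: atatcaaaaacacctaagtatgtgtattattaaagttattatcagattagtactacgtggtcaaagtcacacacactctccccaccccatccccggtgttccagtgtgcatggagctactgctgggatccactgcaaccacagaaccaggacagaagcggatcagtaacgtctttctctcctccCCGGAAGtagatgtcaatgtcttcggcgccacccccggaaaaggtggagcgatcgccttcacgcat
Sdhd: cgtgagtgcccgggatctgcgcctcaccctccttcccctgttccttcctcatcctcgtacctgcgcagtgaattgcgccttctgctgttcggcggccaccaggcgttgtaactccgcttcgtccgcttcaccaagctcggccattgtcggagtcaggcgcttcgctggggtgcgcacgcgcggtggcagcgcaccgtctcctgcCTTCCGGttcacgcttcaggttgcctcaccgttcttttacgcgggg
A match is a description of letters in this window and not a shown binding site.

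The rise in TILs went with short mRNAs. The median effective transcript length (the length from which fragments can start, as Salmon estimates it) was 484 bases over the 86 members, from 193 to 2463, and 1328 bases over all genes with a count. The 12 members called in 5 or 6 tissue comparisons had a median of 445 bases (197 to 566), and the 16 tested members called in none had 1226 bases (532 to 2363). In WT CD4 cells, 40 of 43 members under 500 bases were called higher, with a median log2 fold change of 1.29, against 32.4% and 0.30 for the 740 genes of that length. Between 500 and 1000 bases 15 of 24 members were called, median 0.81 against 0.50, and over 1000 bases 5 of 15, median 0.32 against -0.13. Within each length class the members were above the median of all genes in this comparison, and the gap was widest in the shortest class.

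For the members, the same order of length classes was seen in the other WT comparisons, while the medians of all genes were highest in the middle class. In WT CD8 cells the member medians were 1.05, 0.69 and 0.32 from the shortest to the longest class, beside 0.16, 0.42 and -0.10 for all genes, and in WT CD45 cells 1.14, 0.80 and 0.34, beside 0.19, 0.48 and -0.17. Fragment lengths moved with tissue on average: the mean was 218 bases in WT CD4 cells of TDLNs and 188 in WT CD4 TILs, 218 and 165 in WT CD8 cells, and 239 and 190 in WT CD45 cells. The WT CD45 libraries overlapped, at 233, 239, 301 and 184 bases in TDLNs and 192, 190, 182 and 193 in TILs. With offsets for the average transcript length, which take each library's own effective lengths into account, 56, 36 and 55 members were called higher in WT CD4, CD8 and CD45 cells, and 3, 6 and 57 in Yap-cKO cells. The shares of all genes under these offsets were not compared, so these counts cannot be set against those of other genes. The part of fragment length in the remaining order was not tested.

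**Figure D4:**
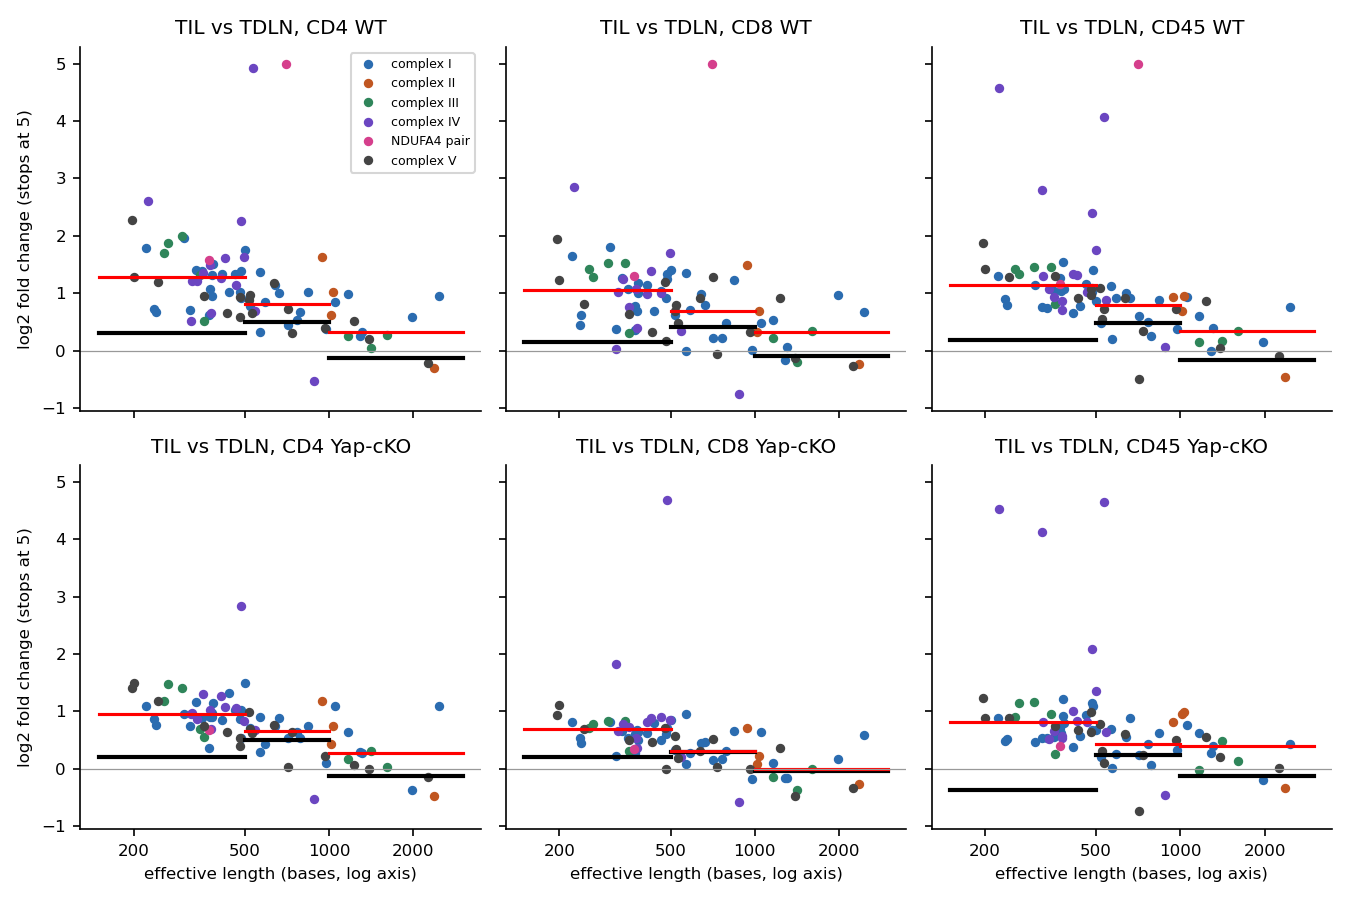
Log2 fold change of TILs against TDLNs (axis stops at 5) for each tested member by effective transcript length in bases, 1 panel for each cell type and genotype, with the median of the members in each of 3 length classes as a red line and that of all tested genes as a black line. In WT CD4 cells the red line falls from 1.29 under 500 bases to 0.32 over 1000 bases. The black line is at 0.30 and -0.13 in these classes and is highest in the class between them.

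Other cells also moved with tissue. In WT T-cell TILs the T-lineage marker sum was 5226 CPM in CD4 and 4589 CPM in CD8 cells, against 12823 and 12038 CPM in TDLNs, and the melanoma sum was 13357 and 11984 CPM. Yap-cKO T-cell TILs had T-lineage sums of 9196 and 8252 CPM and melanoma sums of 1323 and 1316 CPM. In CD45 TILs the melanoma sums were 1374 to 2219 CPM in WT and 338 to 906 CPM in Yap-cKO mice. The part of melanoma RNA in these values was not tested. Scaling on T-lineage genes raised all genes in T-cell TILs: 81 of 82 members were called higher in WT CD4 TILs and 79 of 80 in WT CD8 TILs, where 56.5% and 56.9% of all genes were, with medians of 2.72 and 2.43 against 1.53 and 1.54. In the Yap-cKO TILs 54 and 56 of 79 were called higher, where 20.2% and 18.7% of all genes were, with medians of 1.01 and 0.93 against 0.23 and 0.36.

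The second comparison asked whether deletion of Yap went with a difference in these genes. In CD8 TILs, 6 of 81 tested members were lower in Yap-cKO than in WT and 0 were higher, a share below the 9.59% of all genes that were called lower. Yet 77 of 81 had a negative log2 fold change, the median was -0.50 against 0.08 for all genes, and 30 members had every Yap-cKO library below every WT library, where 13.5% of all genes did. The 6 were Ndufa5 of complex I, Sdhb of complex II, Uqcrq of complex III, Atp5mpl of complex V, and both Ndufa4 and Ndufa4l2.

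Ndufa4l2 had 718 counts over the WT and 28 over the Yap-cKO libraries, with the CPM of each library given above, and it reached the filter through the WT libraries. Its call is therefore no support, and without it 5 of 80 members were called lower, where 8.35% of the genes left in the same way were. Ndufa4, itself abundant, was at 644, 373, 333 and 561 CPM in WT and at 171, 212, 282 and 261 CPM in Yap-cKO CD8 TILs, and fell by 1.01 on the log2 scale (SE 0.285, edgeR adjusted p = 0.0441). Ndufa5 was at 212, 113, 109 and 164 CPM in WT and at 37.8, 61.5, 81.4 and 72.7 CPM in Yap-cKO CD8 TILs, and fell by 1.20 (SE 0.313, adjusted p = 0.0346). In none of these 3 did the genotypes overlap.

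Sdhb was at 585, 385, 317 and 625 CPM in WT and at 144, 231, 297 and 207 CPM in Yap-cKO CD8 TILs, a fall of 1.09 on the log2 scale (SE 0.302, edgeR adjusted p = 0.042). Uqcrq was at 484, 257, 280 and 447 CPM in WT and at 110, 161, 202 and 214 CPM in Yap-cKO CD8 TILs (log2 fold change -1.06, adjusted p = 0.0491). Atp5mpl was at 357, 186, 184 and 297 CPM in WT and at 70, 106, 132 and 144 CPM in Yap-cKO CD8 TILs (log2 fold change -1.14, adjusted p = 0.043). These 3 were also without overlap. Sdha and Atp5a1 were at 0.17 and -0.19 in the same comparison (adjusted p = 0.548 and 0.545).

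These calls were close to the threshold. Without Yap-cKO CD8 TIL replicate 2, 0 members were called lower, and without WT replicate 3, 17 were. Without WT replicate 1, 2 or 4 or Yap-cKO replicate 1 or 4, 1 was. DESeq2 called 23 lower and 1 higher. The shares of all genes in these fits were not compared. The WT and Yap-cKO CD8 TILs also differed in other RNA: the melanoma sums were 16506, 12704, 4552 and 14175 CPM in the WT libraries, against 85.6, 671, 3076 and 1430 CPM in the Yap-cKO libraries, and endothelial markers summed to 124 to 1636 CPM in WT (283 on average without replicate 2) and 64.3 to 88.6 CPM in Yap-cKO mice. Macrophage and monocyte markers stood the other way, at 281 to 694 CPM in WT and 730 to 1974 CPM in Yap-cKO CD8 TILs. Under scaling on T-lineage genes 77 members were called lower, where 38.6% of all genes were, with a median of -1.65 against -1.07. The part of melanoma, endothelial and macrophage RNA in the difference was not tested.

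In CD4 TILs, 0 of 82 members were called, where 8.02% of all genes were, with 66 of 82 negative and a median of -0.26 against 0.14. At an unadjusted p under 0.05, 4 were lower and 1 was higher, where 24.5% of all genes passed in either direction. DESeq2 called 3 lower. Yap-cKO replicate 3, with the highest sum of all 86 genes in its group, stood within the WT libraries for several members: Sdhb was at 168, 202, 561 and 236 CPM in Yap-cKO against 693, 596, 423 and 361 CPM in WT CD4 TILs. Without that replicate 34 members were called lower, a count for which the share of all genes was not compared. Yap-cKO replicate 3 also had the highest melanoma sum of its group, 2984 CPM, against 247 to 1055 CPM in the others. It had the highest T-lineage sum as well, 12568 CPM, beside a mean of 8071 CPM without it. Its sum of the subunits encoded by mitochondrial DNA was the lowest, 1492 CPM against 3099 to 6123 CPM. Not all members were high in it: Sdha was at 159 against 287 to 324 CPM and Ndufs1 at 24.3 against 84.7 to 101 CPM. What set this library apart was not tested.

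In CD45 TILs, 0 of 82 were called, where 1.1% of all genes were, with 79 negative and a median of -0.43 against 0.01. At an unadjusted p under 0.05, 36 were lower and 0 higher, where 17.8% of all genes passed in either direction. DESeq2 called 2 lower. B cell markers summed to 766 to 1600 CPM in WT and 193 to 738 CPM in Yap-cKO CD45 TILs, and the melanoma sums given above also did not overlap. The part of these cells in the difference was not tested. In TDLNs, in CD4 cells 0 of 78 members were called and 73 were negative, with a median of -0.19; in CD8 cells 0 of 77 and 68, with -0.21; and in CD45 cells 0 of 78 and 53, with -0.08. Of all genes, 0.0462%, 0.0158% and 0.0596% were called in these 3 comparisons, and 49.6%, 48.7% and 50.5% were negative.

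**Figure D5:**
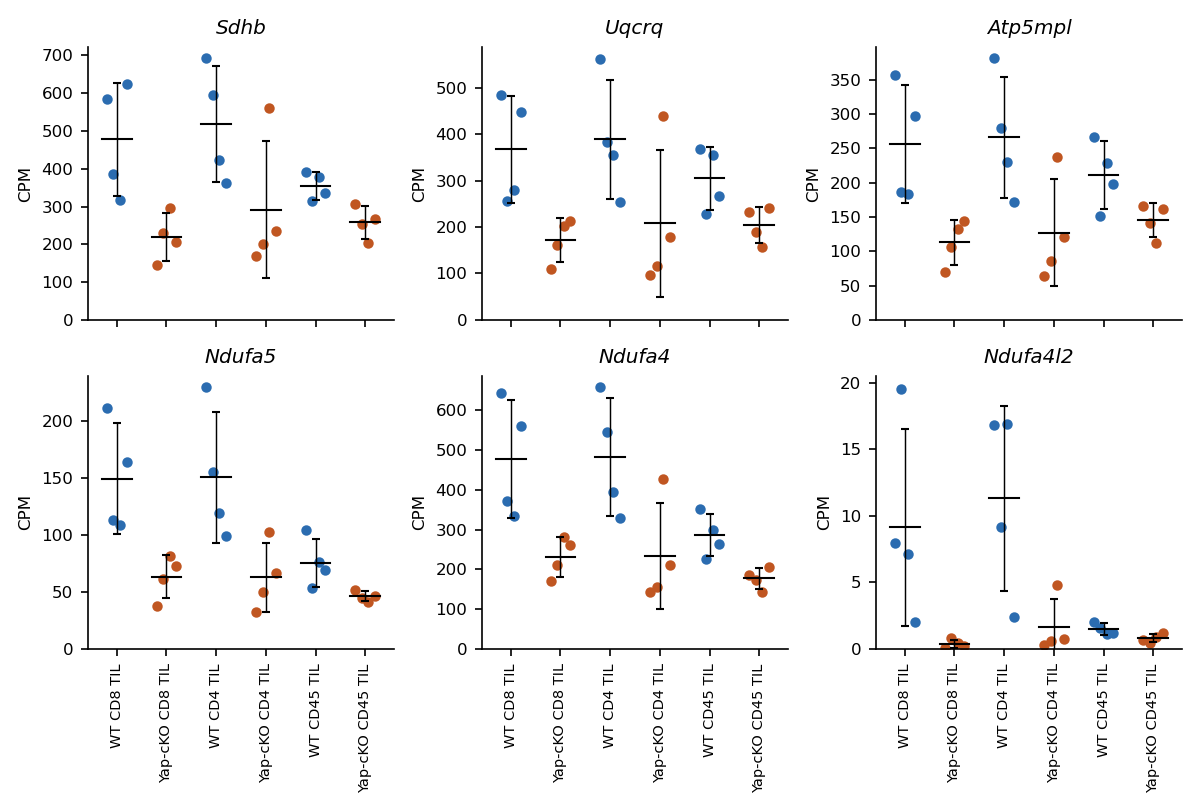
CPM of Sdhb, Uqcrq, Atp5mpl, Ndufa5, Ndufa4 and Ndufa4l2, the 6 members called lower in Yap-cKO CD8 TILs, in each TIL library of CD8, CD4 and CD45 cells (points; blue WT, orange Yap-cKO), with bars for the mean and SD of 4 libraries. In CD8 cells Sdhb is at 317 to 625 CPM in WT and 144 to 297 CPM in Yap-cKO mice, and in CD4 cells replicate 3 of Yap-cKO stands apart at 561 CPM.

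The difference between the tissue effects of the 2 genotypes was tested directly as an interaction, and 0 members were called in CD4, CD8 or CD45 cells by edgeR or by DESeq2, where edgeR called 1.36%, 0.422% and 0% of all genes. At an unadjusted p under 0.05 there were 0 members in CD4 cells, 2 higher and 5 lower in CD8 cells, and 1 higher and 3 lower in CD45 cells. Of all genes, 14.8%, 15.6% and 8.38% passed in either direction, a larger share in each. The median interaction terms of the members were -0.09, -0.37 and -0.31 on the log2 scale, and those of all genes 0.14, 0.05 and 0.02. Ndufa4, Ndufa5 and Atp5mpl had -0.98, -1.03 and -1.04 in CD8 cells (adjusted p = 0.296, 0.269 and 0.255). A larger rise in WT than in Yap-cKO TILs was therefore not shown by this test for any single member.

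The third comparison set the cell types side by side in TDLNs of WT mice. CD8 and CD4 cells differed in 0 of 78 members, where 3.88% of all genes were called, with a median of 0.26 and 70 of 78 higher in CD8 cells. Of all genes, 51.7% were higher in CD8 cells, with a median of 0.02. Libraries with the same number deviated together in this comparison (correlations of 0.354 to 0.737), and with the replicate number as a block 2 members were called higher in CD8 cells. CD45 and CD4 cells differed in 2 of 79 members, where 28.2% of all genes were called. Cox6a2 had 677 counts over the CD45 libraries and 11 over the CD4 libraries, none of which reached 10, so its call is no support. Cox7b, a small complex IV subunit, was lower in CD45 cells, at 58.5 against 90.1 CPM (log2 fold change -0.61, SE 0.205, edgeR adjusted p = 0.0477). The call for Cox7b was lost when any 1 library was left out and under the replicate block.

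Genes around the pathway were read from lists of related function. Of the 13 subunits encoded by mitochondrial DNA, 0 were called higher in WT CD4 TILs, 3 in WT CD8 TILs and 6 in WT CD45 TILs, with medians of 0.89, 1.38 and 1.30, and 0 differed between genotypes in any group. Of all genes, 26.8%, 24.5% and 25.8% were called higher in the WT comparisons, so only WT CD45 cells, at 46.2% of the subunits, had a larger share. In Yap-cKO TILs the medians of these subunits against TDLNs were -1.01, 0.59 and 0.27, with 0 called higher in each. In Yap-cKO CD45 TILs 1 was called lower, where 27.9% of all genes were. Of 44 tested assembly factors, 17, 13 and 12 were called higher and 0, 3 and 3 lower in WT CD4, CD8 and CD45 TILs, beside the 26.8%, 24.5% and 25.8% of all genes called higher. Uqcc2, an assembly factor of complex III, rose by 1.85, 1.24 and 1.39 on the log2 scale. Of 13 enzymes of the citric acid cycle 3, 3 and 2 were called higher in the same comparisons, a share below that of all genes in each, among them Idh3a, a subunit of isocitrate dehydrogenase, by 1.24, 1.23 and 0.78.

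The regulators of mitochondrial biogenesis were more often called lower than higher. Of 13 (12 tested in Yap-cKO CD4 cells), 7 were called lower in WT CD4 TILs, 6 in WT CD8 TILs and 8 in WT CD45 TILs, and 3, 2 and 9 in Yap-cKO TILs. Of all genes, 20.3%, 18.8% and 23.7% were called lower in the WT comparisons and 6.55%, 7.78% and 27.9% in the Yap-cKO comparisons. In Yap-cKO CD8 TILs 1 regulator was called higher, where 12.2% of all genes were. Tfam, which packages mitochondrial DNA, fell by 0.58 in WT CD4 and by 1.86 in WT CD45 cells on the log2 scale (edgeR adjusted p = 0.0392 and 0.000352), and Pprc1, a relative of the coactivator PGC-1alpha, fell by 1.56 in WT CD4 and 1.98 in WT CD8 cells. The regulator called higher in WT CD4 and WT CD8 TILs was Ppargc1a, which encodes PGC-1alpha, at 51, 6.24, 11.9 and 22.7 CPM in WT CD4 TILs against 0.114 to 0.486 CPM in TDLNs. In T cells of WT TDLNs it stood near the floor of 3 counts and reached the filter through the TIL libraries. Its calls are therefore no support. In Yap-cKO CD4 TILs it was at 0.225, 4.23, 3.48 and 3.35 CPM. These regulators have long mRNAs, with a median effective length of 1984 bases, and the 11671 tested genes of over 1000 bases had a median log2 fold change of -0.13 in WT CD4 cells.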

How the data were processed

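The 48 libraries were assigned to 12 groups of 4 by genotype, sorted population, tissue and replicate number as the labels give them. Per the labels, SMART-Seq v4 libraries were made from sorted cells, and the submitters' processing notes name FastQC, Trimmomatic, Salmon 0.9.1 and mm10. As deposited by the authors, each transcript has an expected count, the reads Salmon gave to it without normalization, and a TPM value, scaled by Salmon for effective length and library size. Here 111787 of 112092 transcripts were matched to GENCODE M21, which left 0.0488% to 0.18% of counts unmatched, and expected counts were summed over 34932 genes and rounded. Of 72 pairs of libraries within groups, 0 differed by less than sampling noise.

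Each comparison was fitted on its own 8 libraries (the interaction on 16) over all genes that reached 10 counts in 4 or more libraries, with edgeR 4.0.16 in R 4.3.3 (TMM, quasi-likelihood F test, two-sided), with p-values adjusted by Benjamini-Hochberg over all tested genes. Sums over members were not tested. Between single values, 4 libraries against 4 cannot reach an exact permutation p below 0.0286. Alternatives were DESeq2 1.42.0, total gene counts without TMM, no filter, average transcript length offsets, the replicate block, scaling on T-lineage genes, a log2 fold threshold of 1 as in the study, leaving out each library and, chosen after the data were seen, only genes at the filter in both groups. The script was tested on simulated data. The members, marker lists and pathway lists were chosen with earlier results of these data known. Named in each comparison were up to 8 called members in each direction by size of change, with a fixed set of core subunits and isoform pairs; other genes were named after their values were seen. Intervals and floors (95%, 3 counts) cover counting error only. Same-numbered libraries clearly deviated together only between CD8 and CD4 cells, where every correlation of deviations was 0.354 to 0.737. The lower correlations elsewhere do not show separate mice, and all fits but the replicate block took the libraries as unpaired. Promoters are from RefSeq (GRCm38.p6). The results of 1 member by itself are not reported here, and it is left out of the plot by member.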

Additional observations from a re-analysis of the deposited data

Results flagged for a closer look

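In 4 of 192 group values, 1 of 4 libraries stood farther from the others than Dixon's 95% critical value allows (for the gap to the nearest library divided by the range of the group, given in parentheses). The 192 include values of single genes at 3 counts or fewer in every library of a group, which were not tested. Chance alone is expected to mark about 5% of the groups tested. The summed CPM of complex II was 1156 in Yap-cKO CD4 TIL replicate 3, against 686 to 756 in the other libraries of that group (0.851). Ndufa4l2 was at 4.80 CPM in the same library, against 0.281 to 0.71 CPM (0.905). Atp5k was at 54.2 CPM in WT CD4 TDLN replicate 2, against 32.5 to 35.7 CPM (0.852). Ndufa5 was at 31.7 CPM in WT CD4 TDLN replicate 4, against 39.8 to 41.1 CPM (0.859).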

How the results depend on the processing

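Counts of called members changed under several settings. Except where given above, the shares of all genes under these settings or with 1 library left out were not compared. Lower in Yap-cKO CD4 TILs were 0 members, 3 with DESeq2, 2 with total gene counts, 1 without the filter and 48 with T-lineage scaling; in CD8 TILs 6, 23 with DESeq2 and 77 with T-lineage scaling, with 1 higher by DESeq2; and in CD45 TILs 0, and 2 with DESeq2. Higher in TILs than TDLNs were, in WT CD8 cells, 37 members, 58 with total gene counts and 79 with T-lineage scaling. In Yap-cKO CD4 cells 5 were higher, 20 with DESeq2, 28 with total gene counts, 14 without the filter, 3 with length offsets and 54 with T-lineage scaling. In Yap-cKO CD8 cells 12 were higher, 39 with total gene counts, 6 with length offsets, 56 with T-lineage scaling and 3 with the fold threshold, which also left 39 in WT CD4, 36 in WT CD45 and 12 in Yap-cKO CD45 cells. Lower in TILs were 1 in WT CD4 cells with length offsets, 1 in WT CD45 cells with total gene counts, and in Yap-cKO CD45 cells 3 with total gene counts, 2 with length offsets and 0 with the fold threshold. Of CD45 against CD4 cells, 4 were lower with total gene counts and 0 without the filter, with length offsets or with the fold threshold. Over genes at the filter in both groups, a setting chosen after seeing the data, 0 members were higher in CD45 than CD4 cells. The cause of these moves was not tested.

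With the replicate block, 0 members were lower in Yap-cKO CD8 TILs. In the same setting 0 were higher in Yap-cKO CD4 TILs than TDLNs and 1 in Yap-cKO CD8 cells. Lower were 1 in WT CD4 TILs, 0 in Yap-cKO CD45 TILs and 0 in CD45 against CD4 cells. Higher in CD8 than CD4 cells were 2, in the 1 comparison where same-numbered libraries clearly deviated together. Elsewhere the lowest correlation of same-numbered libraries was -0.622 to 0.00444. A low correlation does not show that these libraries came from different mice. Y-linked genes were low in replicate 4 of the WT groups, and whether same-numbered libraries share a mouse was not tested.

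With 1 library left out, members lower in Yap-cKO TILs numbered 0 to 34 in CD4 cells (34 without Yap-cKO replicate 3) and 0 to 17 in CD8 cells, with 0 to 1 higher. Members higher in TILs numbered 51 to 63 in WT CD4, 29 to 44 in WT CD8, 40 to 64 in WT CD45, 0 to 16 in Yap-cKO CD4, 0 to 31 in Yap-cKO CD8 and 37 to 58 in Yap-cKO CD45 cells. In Yap-cKO CD4 cells the count was 0 without TDLN replicate 2, 3 or 4, 12 without TDLN replicate 1, 16 without TIL replicate 1, 9 without TIL replicate 3 and 1 without TIL replicate 4. In Yap-cKO CD8 cells it was 0 without TIL replicate 2 or 4, 1 without TIL replicate 3 or TDLN replicate 2, 2 without TDLN replicate 1, 6 without TDLN replicate 4, 7 without TDLN replicate 3 and 31 without TIL replicate 1. Members lower in TILs numbered 0 to 1 in WT CD4 and WT CD8 cells and 0 to 2 in Yap-cKO CD45 cells. Of CD8 against CD4 cells, 0 to 1 were higher, and of CD45 against CD4 cells, 0 to 1 were higher and 0 lower. Medians near 0 changed sign: that of Yap-cKO against WT CD45 cells of TDLNs was -0.24 to 0.08 (0.01 without Yap-cKO replicate 1), that of the CD4 interaction -0.47 to 0.10, and that of CD45 against CD4 cells -0.16 to 0.13. Of the 54 log2 fold changes named for being called, 0 changed sign (the uncalled core subunit Sdha did); DESeq2 and total gene counts kept all 54 calls and T-lineage scaling the 35 it was run for, while length offsets lost 7, the absent filter 3, the replicate block 20, and single omissions 104 of 372.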

Other observations

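The subunits encoded by mitochondrial DNA varied more between libraries of a group than the nuclear subunits did, and in nodes often in the opposite order. In Yap-cKO CD8 cells of TDLNs, the 86 nuclear members summed to 14677, 11374, 7573 and 14551 CPM in replicates 1 to 4, and the 13 mitochondrial genes to 2936, 7505, 10345 and 3288 CPM. In WT CD4 cells of TDLNs the nuclear sums were 11531, 14607, 12094 and 9016 CPM and the mitochondrial sums 3050, 3632, 4543 and 10696 CPM. The library with the lowest nuclear sum was the one with the highest mitochondrial sum in 5 of 6 groups of TDLNs and in 0 of 6 groups of TILs, and the library with the highest nuclear sum had the lowest mitochondrial sum in 5 of 6 and 3 of 6. In WT CD4 TILs both were highest in replicate 1, at 25270 and 16676 CPM. CPM values share a fixed total, which couples any 2 sums, and this order was noticed in the data and was not tested.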
